A study of Mus musculus with 2 samples.

Results

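The neuromodulator receptor genes are the protein-coding genes of GENCODE M21 whose symbol starts with Drd, Htr, Adra, Adrb, Chrm, Chrna or Chrnb followed by a digit. The rule, which uses names alone, found 46 of the 21938 protein-coding genes on the autosomes, X and Y: 5 dopamine, 14 serotonin, 9 adrenergic and 18 acetylcholine receptor genes. Their chromatin was read by DNase-seq, which cuts DNA where no nucleosome covers it and so marks accessible promoters and enhancers, in the frontal cortex of 14-day-old B6CASTF1/J females, untreated as far as the labels go. These animals are the F1 offspring of C57BL/6J and CAST/EiJ mice. The data hold 1 group of 2 libraries, labelled biological replicates 1 and 2, from separate biosamples with the same donor label. A mark in the labels, 3x, is not explained there, so it is unknown whether animals were pooled, and part of the difference between libraries may be technical. With 2 libraries of 1 group no test between conditions was possible, and every result is a description with both libraries side by side.

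Dopamine, serotonin, noradrenaline and acetylcholine reach the cortex mostly through long axons of neurons whose cell bodies lie elsewhere in the brain, and the receptors in the cortical cells decide what the transmitter does there. Most of these receptors span the membrane and act through G proteins. Those coupled to Gs raise cyclic AMP, those coupled to Gi lower it and open potassium channels, and those coupled to Gq release calcium through phospholipase C. The nicotinic acetylcholine receptors and the serotonin receptors encoded by Htr3a and Htr3b are ion channels that open within milliseconds. Muscle and hair cells of the inner ear use their own nicotinic subunits, whose genes fall under the same naming rule.

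Strength here is the authors' signal for a peak, normalised for read depth, and its scale is not stated. It came in whole multiples of 1 step per library (0.00670 in replicate 1 and 0.00858 in replicate 2, within a tolerance of 0.05 steps, for 100% of peaks), so the number of steps is given as a measure of depth. Replicate 1 had 93641 peaks and 234094 footprints, the short stretches inside accessible DNA that are protected from cutting, and replicate 2 had 66196 and 154015. The median peak held 99 and 83 steps. Among markers of cell types, a promoter peak stood in both libraries at 8 of 8 pan-neuronal genes, 4 of 8 excitatory, 2 of 8 inhibitory, 4 of 6 astrocyte, 1 of 7 oligodendrocyte, 0 of 6 microglia, 0 of 6 endothelial and mural and 0 of 6 muscle and heart genes. In bulk tissue, fewer cells of a type and less accessibility per cell cannot be told apart.

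The sequences below are the most accessible stretches of each receptor system in these cortices. A promoter peak lies within 500 bp of any annotated transcription start of the gene. A linked peak overlaps no such window of any annotated gene and has its midpoint in the gene body or within 10 kb of it. All are reference C57BL/6J sequence of mm10 (GRCm38) on the gene's strand, 5′ to 3′, and capitals mark bases that lay in a footprint in both libraries. The strongest promoter peaks by the mean of the libraries were these. That of Drd1 is shown without untranslated sequence, and those of Htr5a and Chrnb1 with their central parts.
Drd1, chr13:54055706-54055860, minus strand: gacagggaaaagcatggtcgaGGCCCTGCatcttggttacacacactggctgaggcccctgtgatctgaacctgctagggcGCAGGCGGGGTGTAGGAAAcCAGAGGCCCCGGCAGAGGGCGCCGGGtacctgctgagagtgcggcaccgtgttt
Htr5a, chr5:27841761-27842060, plus strand: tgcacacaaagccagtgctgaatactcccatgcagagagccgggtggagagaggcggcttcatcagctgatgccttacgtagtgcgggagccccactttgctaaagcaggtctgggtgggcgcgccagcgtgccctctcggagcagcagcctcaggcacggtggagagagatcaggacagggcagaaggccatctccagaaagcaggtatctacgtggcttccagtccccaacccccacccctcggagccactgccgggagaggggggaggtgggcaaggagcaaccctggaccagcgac
Chrnb1, chr11:69795331-69795630, minus strand: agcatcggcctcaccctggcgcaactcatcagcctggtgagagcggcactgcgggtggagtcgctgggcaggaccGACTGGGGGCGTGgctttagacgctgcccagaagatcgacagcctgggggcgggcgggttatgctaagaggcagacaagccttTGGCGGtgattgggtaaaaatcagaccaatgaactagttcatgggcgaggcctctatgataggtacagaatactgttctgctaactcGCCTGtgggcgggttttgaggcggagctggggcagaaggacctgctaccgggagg
The strongest linked peaks by the mean of the libraries were these, in introns of Drd3, Htr2a and Chrna1 and upstream of Adra2b. In replicate 1 alone a site upstream of Chrm1 (2.68) exceeded that of Chrna1 (2.52).
Drd3, chr16:43802121-43802300, plus strand: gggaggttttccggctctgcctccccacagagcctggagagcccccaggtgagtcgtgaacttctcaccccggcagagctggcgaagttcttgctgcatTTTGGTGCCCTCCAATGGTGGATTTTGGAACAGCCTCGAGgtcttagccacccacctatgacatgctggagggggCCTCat
Htr2a, chr14:74643461-74643660, plus strand: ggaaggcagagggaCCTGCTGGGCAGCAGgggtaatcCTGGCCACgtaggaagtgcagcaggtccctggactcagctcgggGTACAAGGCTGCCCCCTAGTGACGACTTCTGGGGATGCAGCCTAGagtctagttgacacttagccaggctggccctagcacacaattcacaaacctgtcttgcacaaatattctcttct
Adra2b, chr2:127362541-127362700, plus strand: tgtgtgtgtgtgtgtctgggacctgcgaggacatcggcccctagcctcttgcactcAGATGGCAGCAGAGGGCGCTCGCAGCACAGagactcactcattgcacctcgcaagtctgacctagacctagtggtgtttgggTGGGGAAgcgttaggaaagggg
Chrna1, chr2:73572521-73572760, minus strand: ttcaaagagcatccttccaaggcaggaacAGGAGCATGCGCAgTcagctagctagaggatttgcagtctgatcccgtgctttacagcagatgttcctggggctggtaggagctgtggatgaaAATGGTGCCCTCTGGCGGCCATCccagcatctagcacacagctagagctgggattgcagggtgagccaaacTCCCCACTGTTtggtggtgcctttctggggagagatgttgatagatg
The strongest adrenergic promoter peak, that of Adra2a at chr19:54044501-54045380, lay over untranslated sequence and is not printed.

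At the Drd1 promoter 53 of the 155 bases shown were in footprints of both libraries, against 0 of the 300 bases at Htr5a and 24 of the 300 bases at Chrnb1. Of the linked sites, such bases made up 44 of 180 at Drd3, 68 of 200 at Htr2a, 37 of 160 at Adra2b and 48 of 240 at Chrna1.

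Receptor promoters were called in 34 genes in the library with more peaks and in 23 in the other. In replicate 1 these were 73.9% of the 46 genes, beside 63.8% of all protein-coding genes, and in replicate 2 they were 50%, beside 59.2%. The same 23 genes were the ones with a peak in both libraries (50%, against 58.8% of all genes). The other 11 genes called in replicate 1 (23.9%, against 4.92% of all genes) had none in replicate 2, and 12 genes had none in either. No receptor gene had a promoter peak in replicate 2 alone.

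The transmitter systems differed in how often the promoter was called in both libraries. A peak stood in both libraries at 8 of 9 adrenergic, 8 of 14 serotonin and 6 of 18 acetylcholine receptor genes, and at 1 of 5 dopamine receptor genes, Drd1. A further 4 dopamine, 4 serotonin, 3 acetylcholine and 0 adrenergic receptor genes were called in replicate 1 alone. In that library all 5 dopamine receptor genes thus had a promoter peak. By coupling, a peak stood in both libraries at 7 of 9 Gq, 6 of 8 Gs and 6 of 14 Gi receptor genes. For channels it was 3 of 11 neuronal genes and 1 of 4 muscle or hair cell genes. Called in replicate 1 alone were a further 6 Gi, 1 Gq, 1 Gs, 3 neuronal channel and 0 muscle or hair cell channel genes. The gap between Gi and the other coupled receptor genes was therefore narrower in that library. These groups are small, their genes are not replicates, and the differences between groups were not tested.

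**Figure D1:**
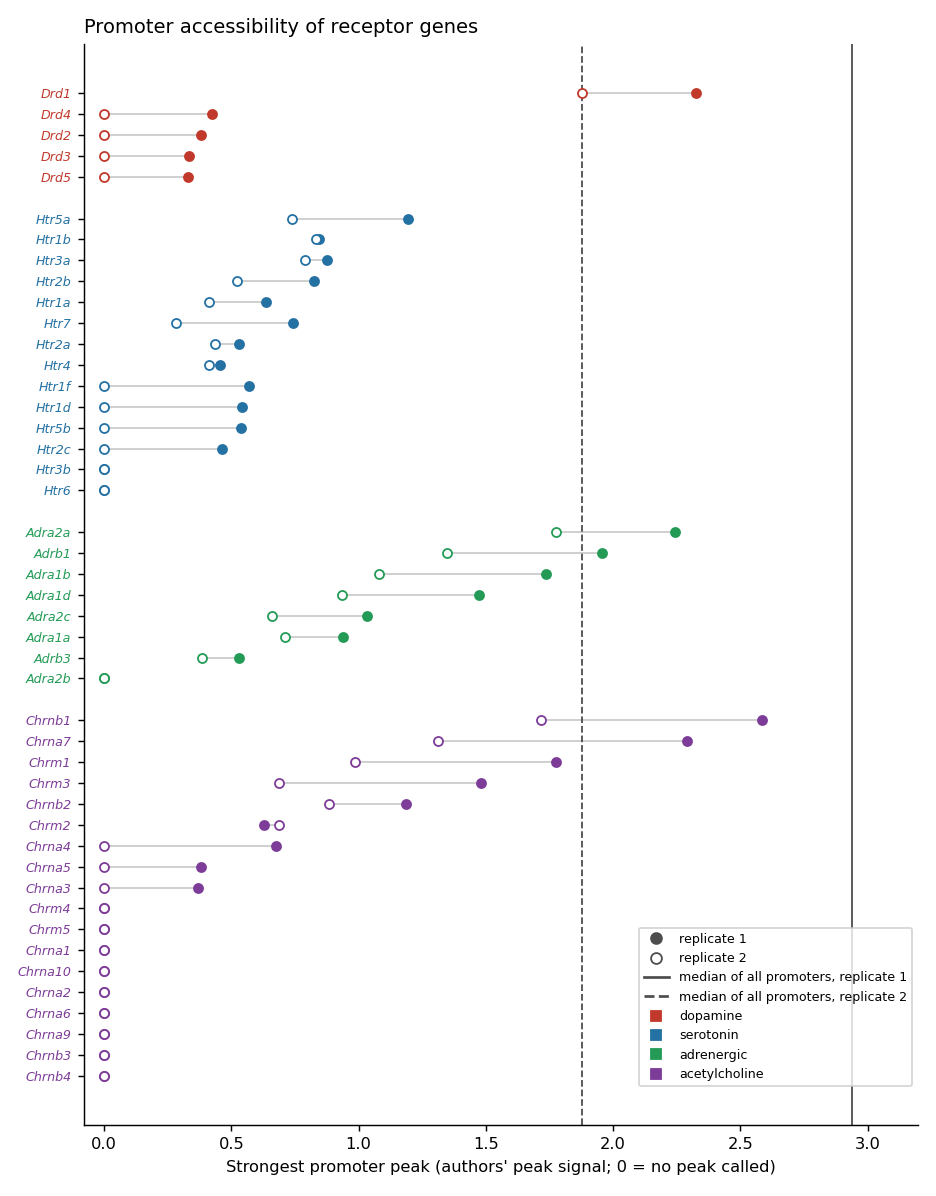
Strength of the strongest promoter peak (horizontal axis, authors' signal, linear scale) of the receptor genes shown (vertical axis), filled for replicate 1 and open for replicate 2, with 0 where no peak was called. The vertical lines mark the medians over the 12910 protein-coding genes with a promoter peak in both libraries, 2.94 in replicate 1 (solid) and 1.88 in replicate 2 (dashed), and no gene shown reaches the solid line.

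Among the dopamine receptors Drd1 stood alone. Drd1 encodes the Gs-coupled receptor through which dopamine raises cyclic AMP, and its strongest promoter peak reached 2.32 in replicate 1 and 1.88 in replicate 2 (347 and 219 steps, mean 2.10 ± 0.315, SD, n = 2). The peak was centred 46 bp upstream of an annotated start, and a weaker one 280 bp upstream had 0.469 and 0.558. The other 4 genes had promoter peaks in replicate 1 alone: 0.382 at Drd2 and 0.422 at Drd4, which encode Gi-coupled receptors, 0.335 at Drd3, another of that class, and 0.328 at Drd5, the Gs-coupled relative of Drd1. Drd3 nevertheless held a strong linked peak in an intron 39990 bp from its nearest start, with 1.71 and 1.24. Drd2 had a weaker intronic one at 39506 bp, with 0.435 and 0.395, and Drd4 and Drd5 had no linked peak in either library.

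The serotonin receptor promoters that were open were weak. The strongest by the mean of the libraries was Htr5a, a Gi-coupled receptor gene, with 1.19 and 0.738 in replicates 1 and 2 (mean 0.965 ± 0.321, SD, n = 2), although Htr1b and Htr3a exceeded it in replicate 2. Htr3a, the obligatory subunit of the serotonin-gated channel, had 0.877 and 0.789. Htr1b, whose Gi-coupled product sits on axon terminals, had 0.844 and 0.832, and 5 promoter peaks in each library, more than any other receptor gene in replicate 2. Htr2b had 0.824 and 0.523, at a site that also lies inside the gene Psmd1. Htr7 had 0.743 and 0.283, Htr1a had 0.636 and 0.412, Htr2a had 0.529 and 0.437 and Htr4 had 0.455 and 0.412. Htr7 was the fifth of these 8 in replicate 1 and the last in replicate 2, and the genes Htr7, Htr1a, Htr2a and Htr4 lay within 0.455 to 0.743 in replicate 1. Peaks in replicate 1 alone were found at Htr1d (0.542), Htr1f (0.569), Htr2c (0.462) and Htr5b (0.536). Htr3b, the other channel subunit, and Htr6, a Gs-coupled receptor gene, had no promoter peak.

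The gene with the strongest linked peak of all 46 was Htr2a, the Gq-coupled receptor of cortical pyramidal cells on which psychedelics act. Its intronic site at chr14:74643461-74643660, 2721 bp downstream of the start, had 2.92 and 2.73 (436 and 318 steps), while its promoter peak had 0.529 and 0.437. Htr2a had 4 and 5 linked peaks in all, among them a site in the untranslated part of the last exon with 0.830 and 0.943. Htr1a, the Gi-coupled receptor that silences serotonin neurons and many cortical cells, had 2 and 5 linked peaks, the strongest 858 bp upstream with 1.01 and 1.10. Htr1b had a site 5504 bp downstream with 2.77 and 1.60, and Htr3a one 16720 bp downstream with 2.30 and 2.02. Htr3b had 1.27 and 1.42 at a site 7721 bp upstream. Htr6 had 1.27 and 0.772 at a site inside the neighbouring gene Tmco4 and 0.904 and 0.892 at one inside Nbl1. Htr2b and Htr2c had no linked peak in either library.

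Adrenergic receptor promoters were called in both libraries in 8 of 9 cases, with strengths of 0.529 to 2.24 in replicate 1. Adra2a, whose Gi-coupled product also acts as the brake on noradrenaline release, had 2.24 and 1.78 (335 and 207 steps, mean 2.01 ± 0.331, SD, n = 2). The β receptor genes, which are coupled to Gs, had 1.96 and 1.35 at Adrb1 and 0.529 and 0.386 at Adrb3, the receptor best known from fat. The Gq-coupled α1 receptors had 1.73 and 1.08 at Adra1b, 1.47 and 0.935 at Adra1d and 0.938 and 0.712 at Adra1a. Adra2c, another Gi-coupled gene, had 1.03 and 0.660. The order Adra2a, Adrb1, Adra1b, Adra1d held in both libraries, whereas Adra2c came above Adra1a in replicate 1 and below it in replicate 2.

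Adra2b was the adrenergic exception, with no promoter peak but a strong linked peak close to its window. Its peak at chr2:127362541-127362700 had 2.39 and 1.66, more than any other adrenergic site in replicate 1, and it began 508 bp upstream of the nearest annotated start, just outside the window of 500 bp. The site matched the CTCF consensus, treated below, with 1 mismatch. Whether it serves as a promoter was not tested. With a window of 1000 bp it counts as a promoter peak, as does a peak of Chrm4 698 bp from the start. Just inside the window, the promoter peak of Adra1d (1.47 and 0.935) began 438 bp from the start and that of Adra2c (1.03 and 0.660) 302 bp. The Adra2b window itself had bases listed at an FDR below 0.05 over 20.5% of its length in replicate 1 and 18.3% in replicate 2. The linked peaks of the adrenergic genes numbered 6 and 2 at Adra2a, 6 and 3 at Adra2c, 5 and 3 at Adra1b and 2 and 5 at Adra1a, so that different genes led in the libraries. A site downstream of Adra1b had 1.88 and 1.23. Peaks covered 52.7% of the short Adra2a gene in replicate 1 and 20.6% in replicate 2, and 37.3% and 32.8% of Adra2c.

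Among the muscarinic receptors, Chrm1 and Chrm3, both coupled to Gq, and Chrm2, coupled to Gi, had open promoters. Chrm1, the main muscarinic receptor gene of cortical pyramidal cells, had 1.77 and 0.986, Chrm3 had 1.48 and 0.686, and Chrm2 had 0.630 and 0.686. Chrm2 was the only one of the 23 genes with a higher value in replicate 2. Chrm4, coupled to Gi, had no promoter peak but a row of strong sites around it: 2.46 and 1.47 at 5237 bp upstream, 1.86 and 1.25 at 3028 bp upstream, and 1.96 and 1.29 inside its coding exon, 795 bp downstream of the start. Chrm1 likewise had its strongest sites upstream, with 2.68 and 1.93 at 1258 bp and 2.08 and 1.05 at 1728 bp. Chrm3, the longest of the muscarinic genes, had the most linked peaks of all receptor genes in both libraries (14 and 6), and the strongest had 1.35 and 1.51. Chrm5, coupled to Gq and best known from midbrain dopamine neurons, had no promoter peak and 1 linked peak in replicate 1 (0.522).

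The neuronal nicotinic genes split by subunit. Chrna7, whose product forms channels of its own that pass calcium, had 2.29 and 1.31 (342 and 153 steps, mean 1.80 ± 0.692, SD, n = 2) in a peak centred 32 bp upstream of the start. Chrnb2, the β subunit of most high-affinity nicotinic receptors of the brain, had 1.19 and 0.883, while its usual partner Chrna4 had 0.676 in replicate 1 and no peak in replicate 2. Chrna3 (0.368) and Chrna5 (0.382) were also called in replicate 1 alone. Their cluster neighbour Chrnb4 had no promoter peak, nor had Chrna2, Chrna6 and Chrnb3. Chrna3 and Chrnb4 share a linked peak, in an intron of Chrna3, with 2.19 and 1.57. Chrna6, typical of midbrain dopamine neurons, and Chrna10, a hair cell subunit, were the only receptor genes with no peak of any kind in either library.

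The subunits known from muscle and hair cells gave an uneven picture. Chrnb1, the muscle β subunit, had the strongest promoter peak of all receptor genes in replicate 1, with 2.59, and 1.72 in replicate 2 (386 and 200 steps, mean 2.15 ± 0.615, SD, n = 2). The peak lay in an intron, 424 bp downstream of the nearest start, and was not called at the promoter with a window of 250 bp. Chrna1, the muscle α subunit, and Chrna9, a hair cell subunit, had no promoter peak. Yet Chrna1 had intronic sites with 2.52 and 2.09 at 7697 bp and with 1.15 and 1.06 at 13177 bp, and Chrna9 had 7 and 5 linked peaks, with 2.02 and 1.43 at the site 11143 bp upstream of its nearest start and 1.88 and 1.97 at one 3246 bp downstream of a start. None of the 6 muscle and heart marker genes had a promoter peak in either library.

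As a group, the open receptor promoters ranked low. Over the 23 genes the median strength was 1.19 in replicate 1 and 0.789 in replicate 2, against 2.94 and 1.88 over the 12910 protein-coding genes with a promoter peak in both libraries. The median percentile of the receptor genes among those promoters was 16.1 and 14.2. None of the 23 exceeded the median of all promoters in either library, and Drd1 equalled it in replicate 2. The bases listed at an FDR below 0.05 covered a median of 49.4% and 28.5% of the windows of these 23 genes, against 35.4% and 28.5% over all genes called in both. Low rank was not tested against other gene families. Pan-neuronal marker genes called in both libraries had medians of 2.64 and 1.67. Other marker genes called in both libraries lay nearer the receptor genes. Their medians were 1.20 and 1.17 for 4 excitatory, 0.961 and 0.922 for 2 inhibitory and 1.08 and 1.10 for 4 astrocyte genes. As far as these few markers show, low strength was not particular to receptor genes.

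**Figure D2:**
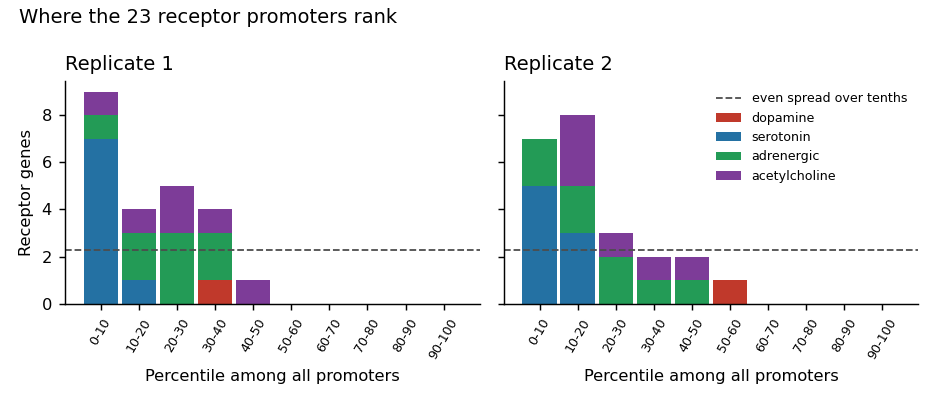
Number of receptor genes (vertical axis) by percentile of promoter strength among all protein-coding genes called in both libraries (horizontal axis, in steps of 10), coloured by transmitter, with replicate 1 left and replicate 2 right. The bar for percentiles 0 to 10 holds 9 of the 23 genes in replicate 1 and 7 in replicate 2, and the dashed line marks an even spread over the bars.

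Strength was higher in replicate 1 for 22 of the 23 genes, with a median ratio of 1.45, near the 1.55 over all genes called in both libraries. Across the 23 genes the libraries gave nearly the same order (Spearman's rho 0.909, Pearson's r 0.899 on the log2 scale), a description across genes, which are not independent replicates. The 11 genes called in replicate 1 alone had strengths of 0.328 to 0.676 there, with a median of 0.422. Of the 1172 protein-coding genes with a strength in that range in replicate 1, 591 (50.4%) were called in that library alone. Of the 16 receptor genes in it, 68.8% were. The range was set by the 11 genes themselves, so the 2 shares cannot be compared. In replicate 2, the windows of 9 of these 11 genes had no base listed at an FDR below 0.05, and the highest share was 1.90%, at Drd2. Of the 12 genes with no promoter peak, 11 had no such base in either library, Adra2b being the exception. In the shorter of the authors' peak lists, both libraries had a promoter peak at 12 receptor genes, among them Drd1, Adra2a, Adrb1, Chrna7 and Chrnb1, but not Chrm1 or Htr2a. Over all genes the share was 52.4% in that list.

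A footprint lay inside a promoter peak in both libraries at 18 of 46 genes (39.1%), beside 56.1% of all protein-coding genes. Adra2c, Adrb3, Htr2a, Htr2b and Htr7 had a promoter peak in both libraries without this. No receptor gene lacking a promoter peak in a library had a footprint in the window there.

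Starts without a promoter peak were poorer in CpG. In the 300 bases centred on each start, the median G and C content was 58.5% (range 46.3% to 78.9%) for the 23 genes called in both libraries, 60.7% for the 11 called in replicate 1 alone and 53.9% for the 12 with no peak. Over all protein-coding genes it was 59.3% for those called in both libraries and 48.3% for those with no peak. The ratio of observed to expected CpG had medians of 0.509, 0.589 and 0.262 in the receptor groups, against 0.622 and 0.197 over all genes called in both libraries and in neither. The genes of highest content were Htr7 with 78.9%, Drd2 with 77.3% and Chrna7 with 76.2%, so a start rich in G and C stood at a strong, a weak and a barely detected promoter.

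Away from the starts, receptor genes held accessible sites in numbers near or above the background. A linked peak stood in both libraries at 30 of 46 genes (65.2%), beside 54.4% of all protein-coding genes. Both figures ask for a linked peak in each library, not for the same one. At Adra2a, for example, no linked site was called in both. The median was 2 linked peaks per receptor gene in replicate 1 and 1 in replicate 2, against 1 and 1 over all genes, and per 100 kb of gene and flanks it was 3.42 and 2.25 against 2.63 and 1.44. Peaks of any kind covered a median of 1.45% and 0.412% of the gene body, against 0.829% and 0.538% over all genes. By that measure the receptor genes lay above the background in replicate 1 and below it in replicate 2. In 21 of 46 genes (45.7%, against 24.6% of all genes) the strongest linked peak exceeded the strongest promoter peak in both libraries, a measure chosen after the values were seen. Of those 21, the promoter was called in both libraries at 8: Adra1b, Adrb3, Chrm1, Htr1a, Htr1b, Htr2a, Htr3a and Htr4. The share for these 8 over all genes called in both libraries was not computed. At the others the promoter had no peak in at least 1 library, where any linked peak exceeds it. The contrast with all genes therefore partly restates the missing promoter calls.

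**Figure D3:**
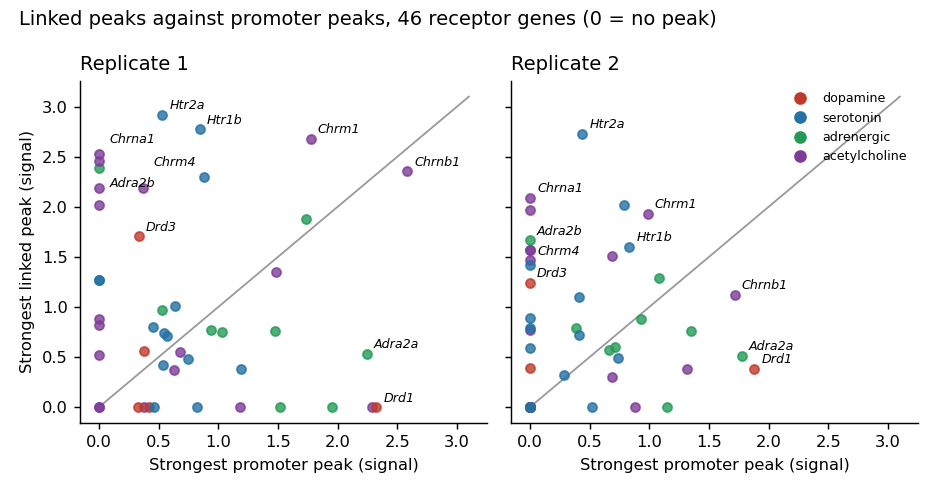
Strength of the strongest linked peak (vertical axis) against that of the strongest promoter peak (horizontal axis), both as the authors' signal, for each of the 46 receptor genes in replicate 1 (left) and replicate 2 (right), with 0 where no peak was called and a line of equal strength. Htr2a lies highest in both panels (2.92 and 2.73), and Drd1 and Adra2a lie far below the line.

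A smaller share of the linked than of the promoter sites was called in both libraries. Overlapping peaks of the libraries were joined into sites, and a joined site could count as promoter though its peak in replicate 2 was a linked one. This was so at Adrb1 and Htr1a. How far the difference rests on this was not tested, and the shares of joined sites over all genes were not computed. Of 60 distinct promoter sites, 34 were called in both libraries and 26 in replicate 1 alone. Of 122 distinct linked sites, 54 were called in both, 53 in replicate 1 alone and 15 in replicate 2 alone. Counted as peaks, 50.5% of the linked peaks of replicate 1 overlapped a peak of replicate 2 and 80.5% the other way round, against 52.8% and 82.6% over all protein-coding genes. The 54 shared linked sites comprised 25 in introns, 14 upstream, 7 downstream, 4 in untranslated regions, 3 in coding exons and 1 in a noncoding exon, and 6 of them lay in the body of another protein-coding gene. Their median strength was 0.907 and 0.811, while those called in replicate 1 alone had 0.402 and those in replicate 2 alone 0.386.

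**Figure D4:**
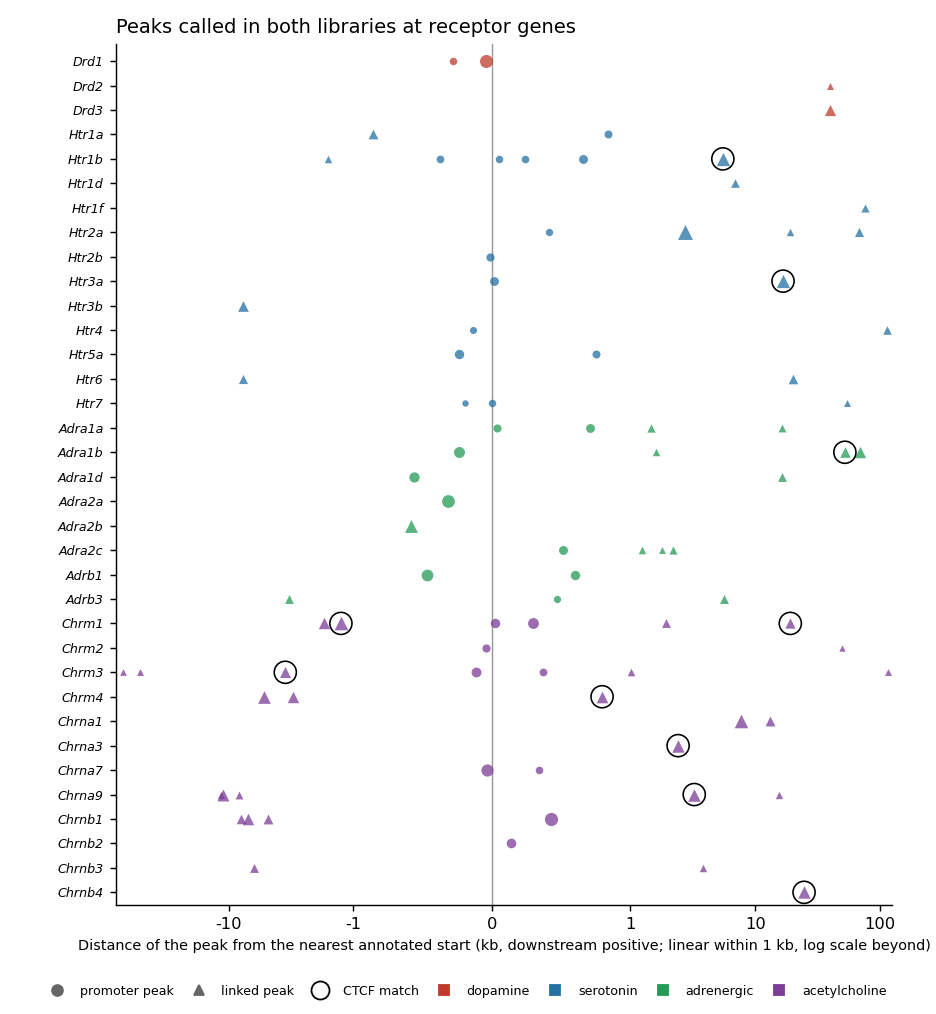
Position of the peaks called in both libraries (horizontal axis, distance of its centre from the nearest annotated start in kb, linear within 1 kb and logarithmic beyond) at the receptor genes shown (vertical axis), with circles for promoter and triangles for linked peaks. Symbol area grows with mean strength, and rings mark the linked sites with a match to the CTCF consensus.

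The strong linked sites often held a match to the consensus of CTCF, the protein that anchors chromatin loops and domain borders. Motifs were searched on both strands in the 300 bases around each peak's centre, and a match is a description of the letters, not a bound site. Of the 21 shared linked sites with a strength of at least 1 in both libraries, 8 held an exact CTCF match, and of the 33 weaker ones 1 did. The background was counted per library, with a strength of at least 1 in that library, called in the other or not. Over all such linked peaks the share was 19.5% in replicate 1 and 23.5% in replicate 2. Receptor genes counted the same way had 9 of 26 and 8 of 21. Over all linked peaks of any strength the share was 6.81% and 9.72%, and at the receptor genes 10.3% and 13.0%. With at most 1 mismatch allowed, 15 of the 21 sites matched, a count made after the sequences had been seen. Counted per library, 17 of 26 and 15 of 21 receptor sites matched, against 47.7% and 56.7% of all strong linked peaks. Of the promoter sites none matched exactly, against 1.54% and 1.64% of all promoter peaks, and with at most 1 mismatch 13.3% and 17.6% did, against 6.92% and 7.27%. All 9 exact matches at shared sites lay in a footprint in both libraries, and are given here on the strand of the gene with the match in capitals.
Adra1b, intron, chr11:43783919-43783947, minus strand: actcacagTGCCCCCTGGTGGtgagccaa
Chrm1, upstream, chr19:8662524-8662552, plus strand: aggatggcCCAGTAGGGGGCAgcctgcca
Chrm1, last exon, chr19:8683232-8683260, plus strand: cattttagCGCCACCTGCTGGcaatttaa
Chrm3, intron, chr13:9882454-9882482, minus strand: gtcaacttTGCCACCTAGTGGcctgatgc
Chrm4, coding exon, chr2:91928009-91928037, plus strand: agaaacctCCACCAGGGGGCGcttctcga
Chrna3, intron, chr9:55024099-55024127, minus strand: tgtactgcTGCCCCCTGGTGGtgattgcc
Chrna9, noncoding exon, chr5:65938207-65938235, plus strand: tctcctgcTGCCCTCTGCTGGtcatgggt
Htr1b, downstream, chr9:81627098-81627126, minus strand: tgggccgtCCACCAGGGGGCAgaatgcct
Htr3a, downstream, chr9:48894289-48894317, minus strand: gattctgtCCACCAGGTGGCAgcaaagcc
The Chrna3 site is the one it shares with Chrnb4. In Chrm4 the match lies within the receptor's own coding sequence.

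RE1, the element bound by the repressor REST that keeps neuronal genes silent in other tissues, was matched at 3 receptor genes. An RE1 match stood in 0.195% and 0.201% of all promoter peaks and in 0.123% and 0.152% of all linked peaks of replicates 1 and 2. At Chrnb2 it lay in the 5′ untranslated part of the promoter peak and inside a footprint in both libraries. At Htr1a it lay in the linked peak 858 bp upstream (1.01 and 1.10), and at Drd3 in the promoter peak called in replicate 1 alone, in neither case inside a footprint. The stretches are shown on the gene's strand with the match in capitals, so that the orientation, opposite at Htr1a, can be read.
Chrnb2, chr3:89764451-89764480, minus strand: cgcggctTCAGCACCACGGACAGcgctccg
Drd3, chr16:43753919-43753948, plus strand: atctctcTCAGCACCAAGGACAGagagccg
Htr1a, chr13:105442782-105442811, plus strand: cacagagCTGTCCCGGGTGCTGAacccaat
The CREB site TGACGTCA stood at 1 linked site, that of Chrna9 at 2.02 and 1.43, against 0.470% and 0.535% of all linked peaks, and the EGR site GCGTGGGCG at the Htr7 promoter, against 1.12% and 1.16% of all promoter peaks. The SP and KLF box GGGGCGGGG stood at 13.3% and 14.7% of the receptor promoter sites, against 14.5% and 14.8% of all promoter peaks. The neurogenic E-box CAGATG stood at 24.3% and 18.8% of receptor linked peaks, against 29.6% and 28.4%, and the AP-1 site TGANTCA at 16.8% and 14.5%, against 12.1% and 11.1%. The NRF1 site GCGCATGCG was at 1 linked site, in Htr7, against 0.284% and 0.334% of all linked peaks, and MEF2 at 1 near Htr6, against 0.836% and 0.810%. The NFI site (TTGGC and GCCAA with 5 bases between), found in 0.140% and 0.142% of all linked peaks, and the RFX site, in 0.265% and 0.266%, had no match.

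Genes that act before and after the receptors are given here beside the 58.8% of all protein-coding genes with a promoter peak in both libraries, with no test between lists. Of 16 genes for the synthesis, transport and breakdown of catecholamines and serotonin, 7 had a promoter peak in both libraries and 5 in replicate 1 alone. The other 4 had none: Th, Pnmt, Slc18a2 and Slc6a2. Genes for the synthesis of the transmitters stood in each of these groups. The strongest of the 16 was Slc18a1 (6.50 and 3.41), whose peak also lies in the window of Atp6v1b2. For acetylcholine it was 1 of 5, Ache, which breaks acetylcholine down, with 1.74 and 1.09, and Chat and Slc18a3, which make and load it, had none. A promoter peak in both libraries was found at all 10 genes for G protein α subunits, led by Gna11 (8.69 and 3.79) and Gnaz (7.05 and 4.19), and at 6 of 7 genes for receptor kinases and arrestins, 10 of 12 for adenylyl cyclases and regulators of protein kinase A, 9 of 10 for Gq effectors and 5 of 6 for helpers of nicotinic receptors. Ranked by strength relative to the median promoter of each library, the strongest were Grk6 (8.57 and 4.85) and Grk4 (6.28 and 4.56, a peak also in the window of Nop14) among the kinases and arrestins, and Prkaca (7.85 and 3.79) and Adcy5 (2.91 and 2.86) in the cyclic AMP pathway, where Prkar2b exceeded Adcy5 in replicate 1 and had 1.56 in replicate 2. Among Gq effectors they were Itpr1 (4.99 and 3.47) and Prkca (3.71 and 2.87, a peak also in the window of Apoh), and among nicotinic helpers Ric3 (2.55 and 1.49) and Lynx1 (1.24 and 1.06), with Lypd6 (1.47 and 0.892) above Lynx1 in replicate 1. The median strengths of the called G protein genes were 2.41 and 1.48, above the 1.19 and 0.789 of the receptor genes. Nearer to the receptor genes were the nicotinic helpers, with 1.24 and 0.892, and the catecholamine and serotonin genes, with 1.47 and 0.892.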

How the data were processed

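DNase-seq of frontal cortex was deposited as 2 libraries of 1 group, grouped by the replicate numbers in the labels. Per the deposited notes, peaks, footprints and FDR cut rates were made by the authors from each library's own alignments to mm10. For aligner, callers, versions and thresholds, nothing is stated in these sources. Peak signal in the deposited lists was normalised for read depth by the authors. That the peak values are on that scale was read from their steps. The deposited FDR values are on the p-value scale, and all listed stretches are below 0.05. The deposited footprint files hold a constant in the other value column, so only positions were used. Of the 2 deposited peak lists per library the longer was used, and the shorter (53068 and 36975 peaks) was an alternative. Some peaks of a list overlap each other (2119 and 1340) and were counted apart. With no counts outside peaks, the signal steps are the depth measure, and no interval was computed.

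The receptor genes, gene lists, motifs and tests were chosen with earlier results of these data known. Starts are all transcript starts of GENCODE M21. Coordinates were compared with GRCm38 (0 past a chromosome end), and sequences are GRCm38 as held by RefSeq. Overlap means at least 1 bp. Percentiles are among protein-coding genes with a promoter peak in both libraries. Values in full were planned for, per transmitter, the 3 strongest promoters and the 3 genes with most linked peaks, with every gene lacking a peak in 1 or both libraries named; of each other list, the 2 strongest promoters and those without a peak are named. Values of further genes are also given. A receptor gene and some genes of the other lists count in every total but are not reported here by name or drawn by name. Python 3.11.15, numpy 2.4.6, scipy 1.17.1, pandas 2.3.3 and pysam 0.24.0 were used, and the functions were tested on simulated data. Alternatives were the shorter list, windows of 250 and 1000 bp, other start sets, flanks of 0 and 50 kb, each library alone, other footprint and overlap rules, 1 mismatch and summed peaks.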

Additional observations from a re-analysis of the deposited data

How the results depend on the processing

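Among the results with alternatives, counts of genes mostly stayed within 1.5 times. In the shorter peak list, the genes with a promoter peak in both libraries numbered 12, those with a footprint inside one 10 and those with an RE1 match 1, and the median of linked peaks over both libraries was 1 instead of 1.75, while the median percentile of the promoters was 17.3 instead of 15.3. That percentile was 17.0 with a window of 1000 bp. Over all protein-coding genes the shorter list had a footprint inside a promoter peak at 50.9%, and a median of 0.5 linked peaks. The median of linked peaks was 1 with no flank and 4 with a flank of 50 kb, against 0 and 3.5 over all protein-coding genes. The genes whose strongest linked peak exceeded the promoter numbered 12 with no flank and 32 with 50 kb. Over all protein-coding genes those shares were 13.2% and 42.1%. With 50% reciprocal overlap, 38.7% of the linked peaks of replicate 1 were shared instead of 50.5%. The difference in G and C content between receptor genes with and without a promoter peak in both libraries was 6 instead of 1.83 percentage points when only the start of the gene record was used. With at most 1 mismatch, 15 instead of 8 strong linked sites held a CTCF match.

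With either library left out, the promoter count ranged from 23 to 34, the linked count from 33 to 34, the footprint count from 18 to 28, the median of linked peaks from 1 to 2, the RE1 count from 2 to 3 and the median percentile from 14.4 to 16.2, and the count with a stronger linked peak was 23 without either. Over all protein-coding genes the promoter share was 59.2% to 63.8%, the linked share 56.8% to 65.3% and the footprint share 56.6% to 62.0%. The share with a stronger linked peak was 28.9% to 29.1% there, and the median of linked peaks was 1. Merging overlapping peaks, added after the data were seen as were all alternatives for the percentile, the stronger linked peak and CTCF, changed none of the 6 results it was tried on by count or median. The lack of a call in replicate 2 at the 11 genes called in replicate 1 alone does not show their promoters closed, and the part of depth in it was not tested. Of all genes with promoter strengths in their range, 50.4% were called in replicate 1 alone. That range was set by the 11 genes themselves, so the share is a description only. No paired analysis was possible because there is 1 group.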
